A study of Mus musculus with 7 samples.

Results

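Gpx5-rich cells were cells of the young and the old single-mouse libraries that devoted at least 5% of their unique molecular identifiers (UMIs, counted RNA molecules) to *Gpx5*. They were chosen by that share, by *Gpx5* being at least as abundant as *Lcn8* and *Lcn9* together, and by minima of 500 genes and 3000 UMIs with a mitochondrial share of up to 10%. There were 3199 such cells, 1119 in the young and 2080 in the old mouse, of 5710 cells of these libraries with at least 3000 UMIs. Across the series, 20316 cells of 40342 that passed the limits on genes and mitochondrial share had that depth. The values of *Gpx5*, *Lcn8* and *Lcn9* that chose the cells are given below as a description, and the ranges of *Lcn8* plus *Lcn9* used further on were drawn from the same genes.

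The series profiled the seminal vesicle of 23 mice by droplet single-cell RNA-seq, in mice of several ages and diets. Both libraries used here came from wild type FVB/NJ males on a control diet, and each held the dissociated tissue of a single mouse. The young mouse was 3 months and the old mouse 18 months old. With a single mouse per age, age cannot be told apart from the individual, its dissection or its library, and no test between the ages was made. Members held 8475298 UMIs in the young and 17289053 in the old mouse, with medians of 7079 and 7866 UMIs and 2120 and 2282 genes per cell.

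*Gpx5* encodes a secreted, selenium-independent glutathione peroxidase that is known as an androgen-dependent product of the epididymal epithelium, where it is thought to shield sperm from peroxides. The epididymis is a long duct in which principal cells of successive segments secrete different proteins, among them lipocalins, which carry small lipophilic molecules, cystatins, which inhibit cysteine proteases, and beta-defensins, which are antimicrobial peptides. *Lcn8* and *Lcn9* are lipocalins that are known from the upstream end of this duct. The seminal vesicle, in contrast, is known for abundant seminal vesicle secretory proteins such as *Svs5*.

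Although both libraries were labelled seminal vesicle, *Svs5* was nearly absent from them. Over all cells that passed the limits on genes and mitochondrial share, *Svs5* was 3.55 counts per 1000000 UMIs (CPM) in the young and 3.03 in the old mouse, against at least 34460 in each of the other 21 mice. *Gpx5* had the reverse pattern, at 30480 and 44170 CPM against at most 0.545 in any other mouse. None of the 14606 cells of the other mice with at least 3000 UMIs was Gpx5-rich, which at a floor of 3 counts allows a share of up to 0.0205%, and *Gpx5* reached at most 0.0316% of the UMIs of any of them. The summed level of the 11 matched genes of the seminal vesicle secretory list was 16.9 and 24.5 CPM in members, led by *Spinkl* at 6.50 and 12.8, with *Svs1* and *Svs3b* at 0. These cells were therefore named after *Gpx5* and not after the labelled tissue. Of the barcodes of the libraries (11773 and 10729), 30 were shared, none of them by members of both mice.

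Free RNA and doublets were measured beside the members. Fibroblasts of the same libraries, a cell type that should lack *Gpx5*, held a *Gpx5* UMI in 18.1% of 609 cells (95% exact interval 15.1 to 21.4) in the young and 49.4% of 328 cells (43.9 to 54.9) in the old mouse, at medians of 1598 and 2083 UMIs. Their *Gpx5* level was 203 and 1577 CPM, against 84140 and 81460 in members, all of which held it. By doublet score, 96 (8.58%) young and 200 (9.62%) old members were among the highest-scoring 7.33% and 7.29% of cells, and these were kept in the counts. Intervals here and below cover counting error only.

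Members made up 51.5% (95% exact interval 49.4 to 53.6) of young cells and 58.8% (57.2 to 60.4) of old cells with at least 3000 UMIs. As a share of all cells that passed the limits on genes and mitochondrial share they were 12.2% of 9164 and 22.8% of 9113, and they held 34.1% and 47.3% of those cells' UMIs. Median depth over those cells also differed, at 1735 and 2297 UMIs, and 2173 young and 3537 old cells reached 3000 UMIs.

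*Gpx5* took a median of 8.25% of a young cell's UMIs and 7.85% of an old cell's. Its range was 5.01% to 15.2% in the young and 5.00% to 14.9% in the old mouse, and the middle of the distribution ran from 7.08% to 9.46% and from 6.67% to 9.29% (quartiles). *Lcn8* and *Lcn9* had a median summed share of 0% in the young and 2.25% in the old mouse and upper quartiles of 0.263% and 5.06%. At the 5% limit, 41 young and 125 old cells lay within 0.5 points inside it and 22 and 70 lay within 0.5 points outside it. Their median *Gpx5* was 5.24% inside and 4.80% outside in the young mouse, and 5.25% and 4.78% in the old. *Gpx5* exceeded 5% but fell below *Lcn8* and *Lcn9* in 26 young and 142 old cells, and within 0.5 points of that border lay 6 and 60 members and 9 and 45 cells outside. Median *Gpx5* was 6.45% and median *Lcn8* plus *Lcn9* 6.21% inside this border and 5.91% and 6.18% outside it in the young mouse, and 6.21% and 5.80% inside and 6.04% and 6.38% outside it in the old. Within 10% of the depth limit, 10 young and 15 old members had medians of 3187 and 3168 UMIs, and 8 and 15 cells below it that met the other limits had medians of 2918 and 2919.

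Promoters of 3 genes are shown because *Gpx5* defined the cells while *Lcn8* and *Lypd8* marked opposite ends of their variation. Each is the 250 bases upstream of the RefSeq start (GRCm38.p6), read 5′ to 3′ along the gene's strand, and capitals mark AGAACA or its reverse complement TGTTCT, the core of an androgen response element. They lie at chr13:21292687-21292936 (minus strand) for *Gpx5*, chr2:25652868-25653117 (plus strand) for *Lcn8* and chr11:58378782-58379031 (plus strand, the first of 2 RefSeq starts) for *Lypd8*.
Gpx5: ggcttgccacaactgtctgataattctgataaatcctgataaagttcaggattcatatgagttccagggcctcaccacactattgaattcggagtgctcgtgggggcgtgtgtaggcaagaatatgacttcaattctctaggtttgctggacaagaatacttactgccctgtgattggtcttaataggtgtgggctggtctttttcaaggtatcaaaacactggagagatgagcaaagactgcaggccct
Lcn8: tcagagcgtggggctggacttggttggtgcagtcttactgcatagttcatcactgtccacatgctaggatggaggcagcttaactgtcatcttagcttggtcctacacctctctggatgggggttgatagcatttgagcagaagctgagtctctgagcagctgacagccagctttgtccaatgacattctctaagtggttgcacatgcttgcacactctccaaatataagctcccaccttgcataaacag
Lypd8: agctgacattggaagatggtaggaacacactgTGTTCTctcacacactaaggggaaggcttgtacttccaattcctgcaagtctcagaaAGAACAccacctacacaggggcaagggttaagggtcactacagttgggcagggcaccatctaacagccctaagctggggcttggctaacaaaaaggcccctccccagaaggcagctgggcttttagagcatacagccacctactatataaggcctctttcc
The letters occurred at 218 and 161 bases before the *Lypd8* start and nowhere in the *Gpx5* or *Lcn8* window, nor in the window of the other RefSeq start of *Lypd8*, which is not shown. They were in 5284 of 32851 RefSeq promoter windows of this length (16.1%), in 3 of the 9 genes with a window among those highest against Lcn8/Lcn9-rich cells and in 3 of 8 among those lowest. AGGAAG or CTTCCT, the core of sites for PEA3 factors, was in none of the 3 windows and in 29.5% of all, and TATAAA or TTTATA in none of the 3 and 12.4% of all. A match describes letters only.

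Levels below are CPM of a mouse's summed UMIs, with *Gpx5*, *Lcn8* and *Lcn9* left out of the total. The kit counts 3′ ends of molecules, so gene length does not enter. Outside mitochondrial and ribosomal protein genes, the 20 most abundant genes were led by secreted epididymal products. *Spag11b*, a beta-defensin-like sperm-associated antigen, was first at 49570 CPM in the young and 41160 in the old mouse. *Defb20*, a beta-defensin, followed at 37940 and 30500. The cystatin *Cst11* was at 10660 and 14790, and the siderophore-binding lipocalin *Lcn2* at 10080 and 12080. *Adam7*, a membrane protein transferred to sperm, was at 9214 and 8800. *Spag11b* and *Defb20* thus led both mice, far above fibroblasts, where *Spag11b* was 150 and 574 CPM and *Defb20* 121 and 656.

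Lower in the 20 stood the beta-defensin *Defb47* (9412 and 6722 CPM), the transmembrane epididymal protein *Teddm1a* (4465 and 8620), the Ly6-type surface protein *Lypd8* (8137 and 4582), the lipocalin *Lcn6* (4960 and 5808), the colipase-like *Clpsl2* (6231 and 4424) and the secreted chaperone *Clu* (5316 and 4568). The files' clone name D730048I06Rik, which RefSeq lists under *Pate6*, a Ly6-type secreted protein, stood at 10540 and 5931. It is named here although the naming rule left clone names out, after its values had been seen. 9230104L09Rik, which RefSeq lists under the cystatin-like *Cstdc2*, stood at 5706 and 11350 and is named on the same terms. The rest were general genes, among them the metallothionein *Mt1*, the ferritin light chain *Ftl1*, thymosin *Tmsb4x* and the elongation factor *Eef1a1*. *Lypd8* and *Pate6* were thus lower, and *Teddm1a* and *Cstdc2* higher, in the old mouse, a contrast taken up with the *Lcn8* and *Lcn9* ranges.

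**Figure D1:**
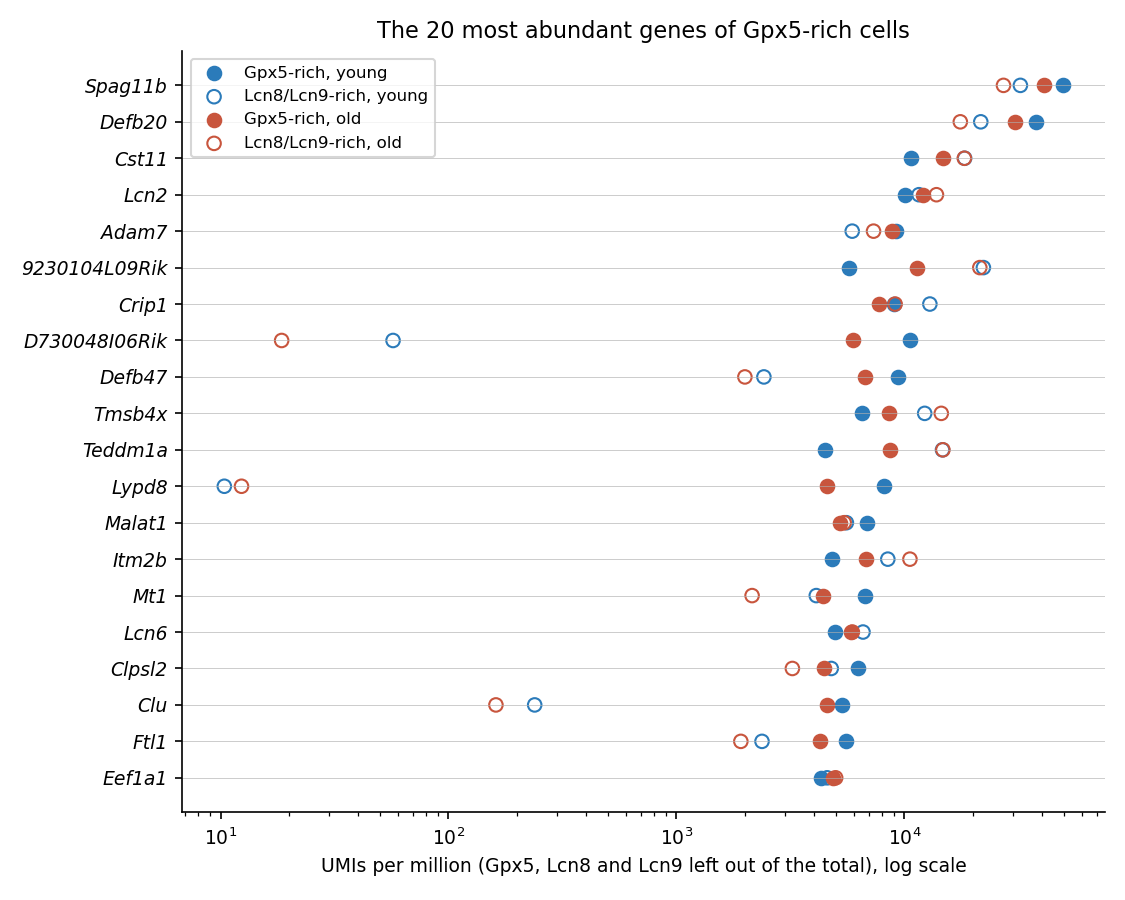
Levels of the 20 most abundant genes of Gpx5-rich cells, in CPM on a log axis, in Gpx5-rich cells (filled) and Lcn8/Lcn9-rich cells (open) of the young (blue) and the old (red) mouse. *Lypd8*, D730048I06Rik and *Clu* are the genes whose open points lie far to the left, at 10.4 and 12.4 CPM for *Lypd8*.

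Epithelial genes were present throughout. *Epcam*, an epithelial adhesion molecule, was at 474 and 537 CPM, the keratins *Krt8* and *Krt18* at 878 and 808 and at 911 and 1066, and the tight junction gene *Cldn4* at 945 and 829. Of 17 principal epithelium genes, 11 reached 100 CPM in either mouse. The list summed to 5556 and 5252 CPM in members and 424 and 865 in fibroblasts. It summed to 5710 and 6588 in all cells that were neither members nor Lcn8/Lcn9-rich, so these genes do not set members apart. The cells thus held epithelial genes together with epididymal products, while genes of the labelled tissue were near 0.

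Markers of other cell types were low except where single genes led them. The 10 fibroblast markers summed to 261 and 288 CPM against 37280 and 40940 in fibroblasts. Immune markers summed to 199 and 349, of which *Cd52*, a surface glycopeptide of lymphocytes that the epididymal epithelium is also known to make, gave 165 and 316. The pan-leukocyte gene *Ptprc* was at 0.910 and 0.520. Smooth muscle markers summed to 864 and 1869, of which the gamma actin *Actg2* gave 597 and 1490, while *Acta2* was 90.8 and 120 and *Myh11* 33.3 and 35.8. Clear or narrow cell markers summed to 285 and 269, led by the ammonia channel *Rhcg* at 198 and 152. Basal markers summed to 139 in each mouse, vas deferens markers to 97.6 and 82.4, efferent duct markers to 47.6 and 63.8, and urothelium markers to 25.2 and 52.8. Endothelial markers summed to 25.3 and 29.0, prostate markers to 23.4 and 28.2 with *Pbsn*, *Msmb* and *Apof* at 0, and sperm cell markers to 19.4 and 19.5 with *Odf1* and *Akap4* at 0. Red blood cell markers had the largest ratio between mice among these lists, at 261 and 47.4 CPM, led by *Hbb-bs* at 168 and 29.5. In fibroblasts they summed to 2433 and 6.97, and a *Hbb-bs* UMI was found in only 2.79% of the young and 0.610% of the old fibroblasts.

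Variation from cell to cell was measured as the ratio of variance to mean, which also rises with abundance. Each member was thinned to 3000 UMIs, and 680 genes then averaged at least 0.5 UMI in both mice. Of these, 73 (10.7%) had a variance at least 2 times their mean in both mice, and the median of the smaller ratio was 1.10. *Cst12*, a cystatin, led with ratios of 50.2 in the young and 43.4 in the old mouse. It was found in 14.7% and 21.2% of thinned cells. The beta-defensins *Defb20* (33.5 and 33.9), *Defb47* (36.5 and 26.0) and *Defb48* (43.1 and 23.7), *Lypd8* (22.6 and 30.3) and *Spag11b* (22.2 and 25.3) followed. *Apoe*, the lipid carrier apolipoprotein E (20.3 and 20.7), the protease inhibitor *Spink11* (16.9 and 18.8), *Cst11* (16.7 and 17.4) and *Teddm1a* (17.3 and 16.7) completed the 10 with gene names.

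Cells were described in 3 ranges of *Lcn8* plus *Lcn9*. Under 0.1% of UMIs fell 780 young members (69.7%, exact interval 66.9 to 72.4) and 831 old members (40.0%, 37.8 to 42.1). From 0.1% to 1% lay 127 (11.3%) and 132 (6.35%), and at 1% or above 212 (18.9%, 16.7 to 21.4) and 1117 (53.7%, 51.5 to 55.9). The range with the most members was thus under 0.1% in the young and at 1% or above in the old mouse, a description of 1 mouse each on genes that the choice of cells used. These are ranges and not types, and 70 young and 88 old cells lay within 0.05 points of the lower limit and 46 and 66 within 0.5 points of the upper.

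*Lypd8* and *Pate6* ran opposite to *Lcn8* and *Lcn9*. *Lypd8* was at 11270 and 11010 CPM under 0.1%, 756 and 1620 in the middle range, and 137 and 212 at 1% or above, against 10.4 and 12.4 in Lcn8/Lcn9-rich cells. The share of thinned cells with a *Lypd8* UMI fell in the same order, from 97.7% and 96.3% through 55.1% and 76.5% to 3.30% and 7.16%, beside 2.46% and 4.27% of fibroblasts at their own lower depth. *Pate6* (D730048I06Rik) was at 14580 and 13970, 1013 and 2175, and 204 and 467. Across cells, thinned counts of *Lypd8* and *Pate6* had rank correlations of 0.836 in the 1119 young and 0.875 in the 2080 old cells, *Lypd8* and *Clu* 0.849 and 0.813, and *Lypd8* and *Teddm1a* -0.832 and -0.816. These cells share their libraries and these are descriptions.

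**Figure D2:**
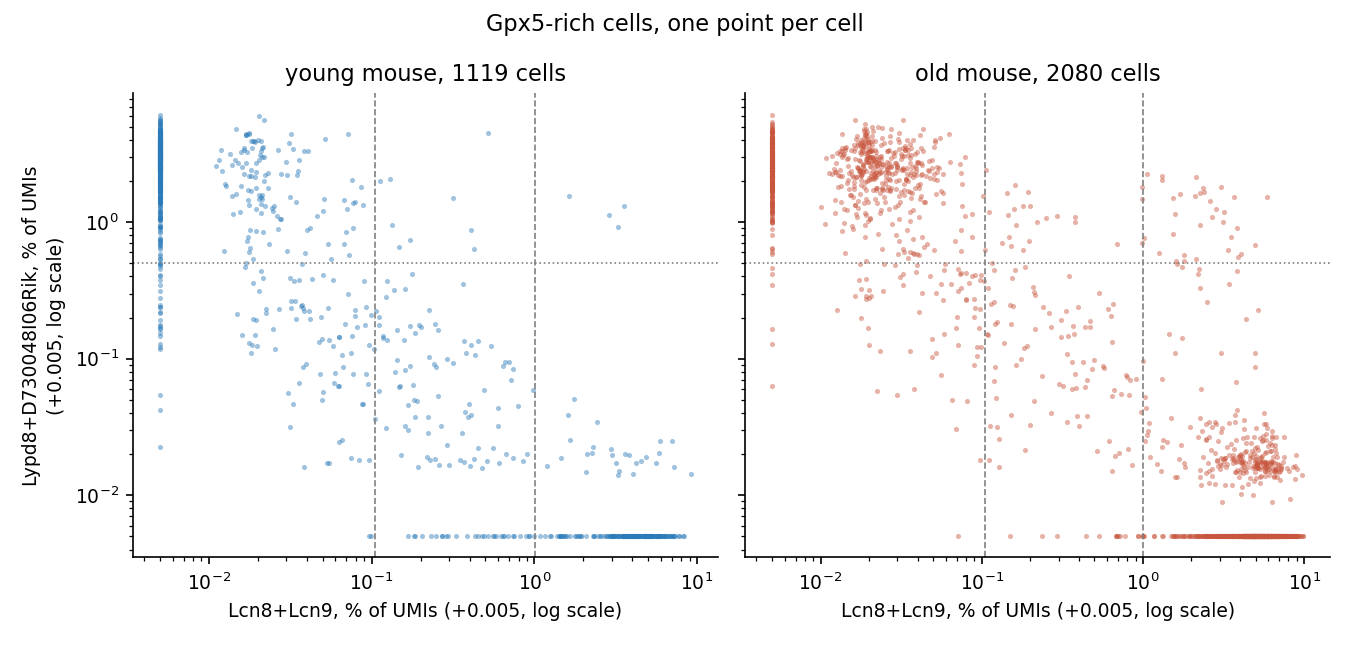
Each point is a Gpx5-rich cell, placed by its share of *Lcn8* plus *Lcn9* (x) and of *Lypd8* plus D730048I06Rik, that is *Pate6* (y), both in percent of UMIs on log axes after adding 0.005. Dashed lines mark 0.1% and 1% and the dotted line 0.5%. Only 4 young and 33 old cells lie at or above both 1% and 0.5%.

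Few cells held both products. At least 1% of *Lcn8* plus *Lcn9* with at least 0.5% of *Lypd8* plus *Pate6* was found in 4 young and 33 old cells, with median depths of 7472 and 12020 UMIs. Of these, 3 and 26 (78.8% in the old mouse) were among the highest doublet scores. Leaving out all cells with the highest doublet scores gave 965 higher and 548 lower genes against Lcn8/Lcn9-rich cells, beside 943 and 567 with them. That refit left out other members too, so the part of these few cells alone was not tested. Neither product reached its limit in 236 young and 185 old cells.

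Other products followed either end. *Slc38a5*, a glutamine transporter, was at 5186 and 5467 CPM under 0.1% and 309 and 311 at 1% or above, and *Clu* at 7145 and 10510 and at 463 and 552. *Lcn5*, a retinoid-binding lipocalin, was at 1218 and 3706 against 339 and 428. In the other direction, *Adam28*, a metalloprotease of the ADAM family, was at 16.8 and 14.6 under 0.1% and 3629 and 4467 at 1% or above. The cystatin *Cst8* was at 67.3 and 47.0 against 5081 and 5256, *Teddm2* at 11.5 and 13.0 against 1236 and 1502, and *Defb48* at 5.11 and 28.9 against 11870 and 9988. As ratios of levels, the ranges differed in each mouse by more than the mice did within a range for each of these genes. *Actg2* and *Cd52* also belonged to this end, at 91.0 and 48.0 against 2534 and 2682 and at 73.9 and 76.2 against 553 and 501. The transcription factors *Etv4* (0.183 and 0.328 against 41.4 and 43.4) and *Etv5* (35.8 and 20.2 against 182 and 176), which are known from the initial segment where testicular fluid factors act, did so too.

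Other genes among those followed within ranges, which were picked after seeing the data, were highest in the middle range in both mice. *Defb47* averaged 16.2 and 7.88 UMIs per 3000 under 0.1%, 73.8 and 49.4 in the middle range, and 31.7 and 21.2 at 1% or above. *Defb20* averaged 92.9 and 68.6, 181 and 155, and 91.6 and 80.9. The milk fat globule protein *Mfge8* averaged 5.33 and 4.12, 11.9 and 13.2, and 7.60 and 8.11. *Spink13* averaged 1.92 and 1.29, 2.74 and 3.12, and 0.401 and 0.269, and the fibrinogen chain *Fgg* 2.14 and 2.21, 3.22 and 3.66, and 1.396 and 1.057. *Lcn2* (23.7 and 20.2, 43.7 and 45.2, 30.9 and 38.4), *Clpsl2*, *Spag11b* and *Adam7* were highest there too. These genes were thus highest where *Lypd8* and *Lcn8* plus *Lcn9* lay between the other ranges. *Defb47* and *Mfge8* were lowest under 0.1% and *Spink13* and *Fgg* at 1% or above. Of the middle range's summed UMIs *Lcn8* alone was only 0.0809% and 0.0848%, and *Lcn9* 0.274% and 0.293%. Fibroblasts held *Lcn8* at 51.1 and 802 CPM, in the old mouse about the level of the middle range. The part of free RNA in that *Lcn8* was not tested. Median shares of *Gpx5*, which chose the cells, were 8.12% and 7.40%, 10.0% and 9.26%, and 7.78% and 8.14%.

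**Figure D3:**
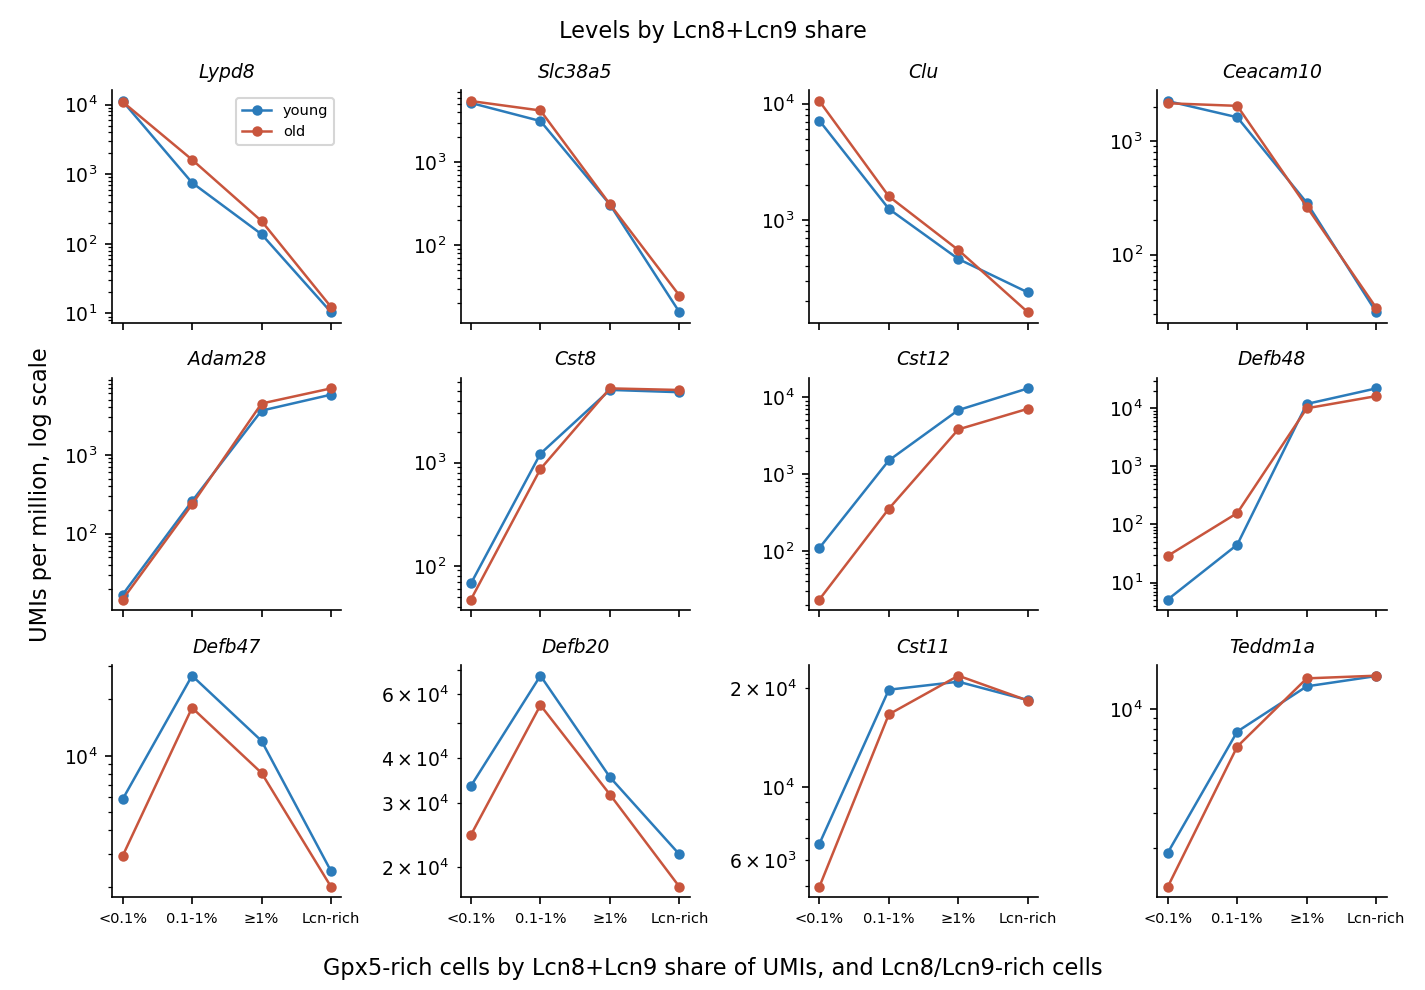
Levels of 12 genes in CPM (log axis, a separate scale for each gene) in Gpx5-rich cells with *Lcn8* plus *Lcn9* under 0.1%, 0.1% to 1% and at least 1% of UMIs and in Lcn8/Lcn9-rich cells of the young (blue) and old (red) mouse. The top row falls from left to right, the middle row rises, and *Defb47* and *Defb20* are highest in the second position.

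Gpx5-rich cells were then compared with Lcn8/Lcn9-rich cells, in which *Lcn8* plus *Lcn9* took at least 5% of UMIs and exceeded *Gpx5*. There were 39 of these in the young and 200 in the old mouse, with 220114 and 1483077 UMIs, and *Gpx5* was still 5.60% and 5.74% of their UMIs. UMIs were summed per mouse and cell group and fitted in edgeR (quasi-likelihood, blocked by mouse), so each cell group had 2 sums and 1 residual degree of freedom was left. The spread was therefore taken from the trend over all genes. Because the cells were split on *Lcn8* and *Lcn9*, genes that vary with those genes differ in part through the choice of cells. Of 10965 genes tested, 943 (8.6%) were higher and 567 (5.17%) lower in Gpx5-rich cells at an adjusted p of 0.05, with a median log2 ratio of 0.06. The direction was the same in both mice for 940 and 557 of them. Without members at or above 1% *Lcn8* plus *Lcn9* the counts were 1812 and 1552, and with those members alone, 212 cells in the young and 1117 in the old mouse, they were 226 and 138. These fits pick members on genes that also define the comparison cells, so these counts are a description.

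The genes most raised were products of the *Lypd8* end. *Lypd8* had 62629 and 70596 UMIs in members of the young and old mouse and 2 and 16 in Lcn8/Lcn9-rich cells, a fitted log2 ratio of 8.71 (SE 0.28). SE here and below was derived from the ratio and the test's statistic. It thus rests on the trend over genes and does not measure the spread between mice. Within a single mouse the log2 ratio of *Lypd8* was 9.61 in the young and 8.53 in the old. *Slc38a5* had a log2 ratio of 6.95 (SE 0.25), at 4125 and 2618 CPM against 15.6 and 24.7. Its 32 UMIs in the old Lcn8/Lcn9-rich cells lay in 4% of those 200 cells. Without the highest doublet scores the log2 ratio of *Slc38a5* was 8.61. *Ceacam10*, a cell adhesion molecule, was at 1845 and 1131 against 31.2 and 34.0, *Spink11* at 597 and 950 against 5.19 and 22.4, and the carboxylesterase *Ces5a* at 528 and 277 against 15.6 and 5.41. In members with *Gpx5* at 10% or more, *Spink11* did not pass (log2 ratio 0.94, edgeR quasi-likelihood, adjusted p 0.289). The colipase-like *Lrcol1*, the aromatic amino acid transporter *Slc16a10* and the C1q-related *C1qtnf9* and *C1qtnf12* had 0 UMIs in the young and at most 3 in the old Lcn8/Lcn9-rich cells. They passed the filter on low counts through the members alone, so that they had to differ.

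Of the raised genes, 3 are best known from other organs. The pancreatic hormone *Ppy* had 1067 and 1106 UMIs in members, the gastric proton pump subunit *Atp4a* 567 and 914, and the aspartic protease *Napsa* 622 and 794, and none had a UMI in Lcn8/Lcn9-rich cells, so these too passed the filter through the members alone. Against a floor of 3 UMIs in the old mouse's Lcn8/Lcn9-rich sum, *Ppy* was at least 31.0-fold, *Atp4a* at least 25.6-fold and *Napsa* at least 22.2-fold higher. In the young mouse, with fewer UMIs in that sum, the bounds were at least 8.90-fold, 4.73-fold and 5.19-fold. None of the 3 passed with DESeq2 (adjusted p 0.410, 0.492 and 0.498). No *Ppy* UMI was found in fibroblasts of either mouse. Within members *Ppy* was at 188 and 165 CPM under 0.1% and 1.56 and 5.45 at 1% or above.

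The genes most lowered were products of the *Lcn8* end. *Teddm2* was at 216 and 812 CPM in members and 4373 and 4378 in Lcn8/Lcn9-rich cells, a log2 ratio of -3.41 (SE 0.19). *Defb48* was at 1986 and 5374 against 21980 and 16180 (-2.57), *Cst12* at 1398 and 2084 against 13090 and 7101 (-2.54), and *Adam28* at 648 and 2415 against 5791 and 6952 (-2.38). In each of these the old members lay nearer to the Lcn8/Lcn9-rich cells than the young did. The Wnt pathway factor *Lef1* was at 6.24 and 11.8 against 88.3 and 71.1 (-2.99). *Defb21*, *Kctd17*, *Fcmr*, the secreted phospholipase *Pla2g5*, the peptide transporter *Abcb9*, the sialyltransferase *St6galnac2* and *Cd52* had log2 ratios between -3.02 and -2.14. With 1 mouse alone the ratios of these 7 ran from -4.02 to -2.96 in the young and from -2.64 to -1.33 in the old, so their size depends on the mouse. Those of *Teddm2*, *Defb48*, *Cst12*, *Adam28* and *Lef1* were -4.34, -3.47, -3.23, -3.16 and -3.82 in the young and -2.43, -1.59, -1.77, -1.52 and -2.59 in the old.

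Secreted families split between the groups of cells. Of 34 sperm maturation genes tested, 17 were higher and 11 lower, with a median log2 ratio of 0.49 against 0.06 for all genes tested, of which 8.6% were higher and 5.17% lower. *Clu* (4.64, SE 0.21), *Spink13* (5.13), *Spink12* (4.19) and *Spag11b* (0.57) were among those higher and *Crisp4* (-1.87), a sperm-binding cysteine-rich protein, and the protease *Ovch2* (-2.01) among those lower. Of 24 beta-defensins, 7 were higher and 4 lower, with a median of 0.41. *Defb18* (3.97) and *Defb47* (1.81) were higher and *Defb25* (-1.46) and *Defb48* lower. Of 6 cystatins, *Cst6* (4.61) and *Cstb* (0.70) were higher and *Cst8* (-1.54), *Cst11* (-0.59) and *Cst12* lower.

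Of 9 lipocalins tested beside *Lcn8* and *Lcn9*, 3 were higher and 0 lower, against 8.6% and 5.17% of all genes tested, with a median of -0.26. *Lcn5* (2.80), *Lcn12* (3.88) and the prostaglandin D synthase *Ptgds* (2.91) were higher. *Lcn2* was at 10080 and 12080 CPM against 11590 and 13830, and the quasi-likelihood test of edgeR, adjusted by Benjamini-Hochberg, gave an adjusted p of 0.411. *Lcn6* at 4960 and 5808 against 6586 and 5914 and *Lcn10* at 2948 and 2995 against 4150 and 3608 did not pass either (edgeR quasi-likelihood, adjusted p 0.368 and 0.077). *Lcn2*, *Lcn6* and *Lcn10* were thus abundant in both groups of cells.

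The choice of cells fixed *Gpx5* above the other glutathione peroxidases. Of 6 others tested, 1 was higher and 1 lower. *Gpx4*, the membrane lipid peroxidase, was at 447 and 613 CPM in members and 888 and 774 in Lcn8/Lcn9-rich cells (log2 ratio -0.68, SE 0.17). *Gpx1* was at 276 and 242 and did not pass, *Gpx8* at 115 and 109, and *Gpx6*, at 35.2 and 39.4 against 5.19 and 21.6, was higher. The 5.19 CPM of *Gpx6* in the young Lcn8/Lcn9-rich cells lay under 15.6, the level of 3 UMIs in that sum. Of 32 genes of glutathione and thiol redox, 10 were higher and 4 lower, with a median of 0.35, where all genes tested had 8.6% higher and 5.17% lower. The glutathione transferases *Gstm1* (1.29) and *Gstm7* (0.97) and heme oxygenase *Hmox1* (3.89) were higher, and peroxiredoxins *Prdx1* (-0.66) and *Prdx6* (-0.55) and thioredoxin *Txn1* (-1.34) lower. *Prdx1*, at 1690 and 1988 CPM, was the most abundant of them.

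More genes of the initial segment and of its luminal signals were lower than higher. Of 17 tested, 7 were lower and 2 higher, with a median of -0.68, beside 5.17% lower and 8.6% higher among all genes tested. The receptor kinase *Ros1* (-0.89), the ETS factors *Etv1* (-0.78), *Etv4* (-1.77) and *Etv5* (-1.15), the ERK phosphatase *Dusp6* (-0.77), *Ovch2* and *Cst8* were lower, and the glutathione-cleaving *Ggt1* (2.48) and the phosphate transporter *Slc34a2* (5.96) higher. Of 13 androgen route genes, 4 were higher and 0 lower, with a median of 0.60. These were the steroid-responsive *Fkbp5* (0.86), *Klf9* (1.68), *Ndrg1* (2.35) and *Sgk1* (1.96).

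Of 26 epithelial transcription factors, 9 were higher and 3 lower, with a median of 0.56, and over all genes tested these shares were 8.6% and 5.17%. *Sox9* (1.14), *Gata3* (1.21), *Elf3* (1.11) and *Ehf* (1.31) were higher and *Pax8* (-1.06), *Emx2* (-0.65) and *Runx1* (-0.69) lower. Of 16 principal epithelium genes, 6 were higher, *Krt19* (4.84) by the most, and 1, *Cldn10* (-1.20), was lower, with a median of 0.47. Of 19 ion and water transport genes, 6 were higher, *Slc38a5* by the most, and 2, the chloride channel *Cftr* (-2.01) and carbonic anhydrase *Car2* (-1.74), were lower, with a median of 0.44.

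Of 40 genes of the endoplasmic reticulum and secretion tested, 1 was higher and 3 lower, beside 8.6% higher and 5.17% lower over all genes tested, with a median of -0.10. *Hspa5*, the main chaperone there, was at 2525 and 1956 CPM against 1543 and 1894 and did not pass. Of 21 dissociation and immediate early genes, 9 were higher and 1 lower, with a median of 0.41. *Atf3* was at 1563 and 980 against 275 and 158 (2.54), and fibroblasts held 2252 and 1903. Of 13 proliferation genes, 2 were lower and 0 higher, with a median of -0.88, and the list summed to 67.6 and 79.1 CPM.

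**Figure D4:**
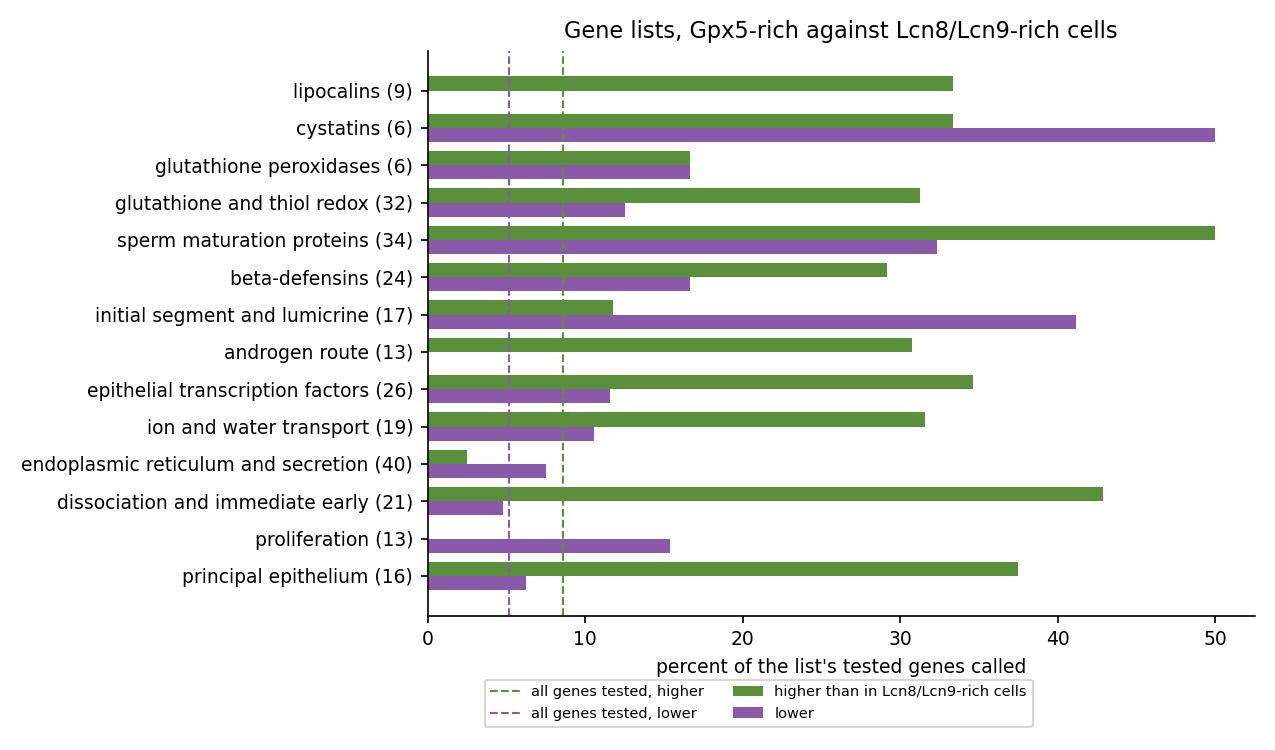
Percent of each list's tested genes (number in parentheses) that were higher (green) or lower (purple) in Gpx5-rich than in Lcn8/Lcn9-rich cells at an adjusted p of 0.05. Dashed lines mark the shares among all genes tested, 8.6% higher and 5.17% lower, and the initial segment list has more lower than higher genes. Marker lists of other cell types are not plotted.

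Between the mice, 8642 genes held at least 100 UMIs in the higher sum. Of these, 161 (1.86%) were at least 2-fold higher in the old mouse and 14 (0.162%) in the young, with a median log2 ratio of 0.04. With a single mouse per age these are differences between libraries. Without the rule genes, members held 7697215 UMIs in the young and 15406886 in the old mouse. The limit of 100 UMIs was thus a lower level in the old mouse, and genes could count as higher there at lower CPM. The part of this in the 2 counts was not tested. The exact Poisson interval of the ratio stayed beyond 2-fold for 82 and 6 of them. Gastric lipase *Lipf* was at 2.08 CPM in the young and 14.0 in the old mouse (ratio 6.75, exact interval 4.06 to 12.0), and the Kunitz inhibitor *Spint4* at 3.38 and 22.5 (6.65, 4.46 to 10.3). The teneurin *Tenm4* was at 1.30 and 8.57, *Defb23* at 1.17 and 7.46 and the lectin *Clec18a* at 1.82 and 9.74. *Spint4* and *Defb23* were far higher in the other cells of the libraries, at 764 and 1317 and at 186 and 543 CPM.

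Genes higher in the young mouse were led by hemoglobin. *Hba-a1* was at 78.7 and 13.1 CPM, *Hbb-bs* at 168 and 29.5 and *Hbb-bt* at 13.3 and 4.02. Few cells carried these values, since a *Hbb-bs* UMI was found in 4.29% of young and 0.721% of old members. Fibroblasts of the same libraries held *Hba-a1* at 685 and 4.18, and the part of red blood cell RNA in these values was not tested. *Id1*, an inhibitor of differentiation factors, was at 13.8 and 4.02, the peroxisomal enzyme *Ehhadh* at 20.7 and 7.08, and the immediate early gene *Egr1* at 445 and 183.

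The same ratios were also taken within ranges of *Lcn8* plus *Lcn9*, as a description only, since the ranges use genes that chose the cells and the genes followed were picked for being 2-fold apart over all members. Under 0.1%, 32 of 6215 genes (0.515%) were 2-fold higher in the old and 13 (0.209%) in the young mouse. At 1% or above, 96 of 6539 (1.47%) and 6 (0.0918%) were. Over all members 14 of 8642 genes were 2-fold higher in the young mouse, nearly the same count as under 0.1%, where fewer genes held 100 UMIs. That limit is a higher level in a smaller sum. Cells numbered 780 young and 831 old under 0.1%, and 212 and 1117 at 1% or above. Of the 161 genes higher in the old mouse over all members, 32 still held 100 UMIs under 0.1%, where 15 stayed 2-fold and 10 turned the other way, and 134 did at 1% or above, where 17 stayed 2-fold and 24 turned. Of the 14 higher in the young mouse, 11 held 100 UMIs under 0.1%, where 4 stayed and 0 turned, and 3 did at 1% or above, where 2 stayed and 0 turned. *Crisp4*, at 70.0 and 232 CPM over all members, was at 362 and 398 in cells at 1% or above. *Egr1* was at 544 and 221 under 0.1% and 154 and 144 at 1% or above.

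Some secreted products differed between the mice in both ranges. The epididymal protein *Epp13* was at 49.5 and 375 CPM under 0.1% and 7.80 and 33.7 at 1% or above, and the ribonuclease family member *Rnase9* at 42.7 and 249 and at 1.56 and 24.0. Both were higher in the other cells of the libraries as well, at 279 and 992 for *Epp13* and 152 and 692 for *Rnase9*, and fibroblasts held *Epp13* at 5.78 and 32.0 and *Rnase9* at 3.86 and 34.8. At 1% or above *Epp13* was thus near its level in the fibroblasts of the same library, and *Rnase9* was below its level there, in each mouse. Under 0.1% both genes were above their fibroblast levels. The part of free RNA in the difference at 1% or above was not tested. The proteasome subunit *Psmb7* was at 45.1 and 98.0 and at 45.3 and 99.6, and fibroblasts also differed, at 33.7 and 65.5. *Defb30* was at 104 and 571 under 0.1% but 106 and 168 at 1% or above.

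**Figure D5:**
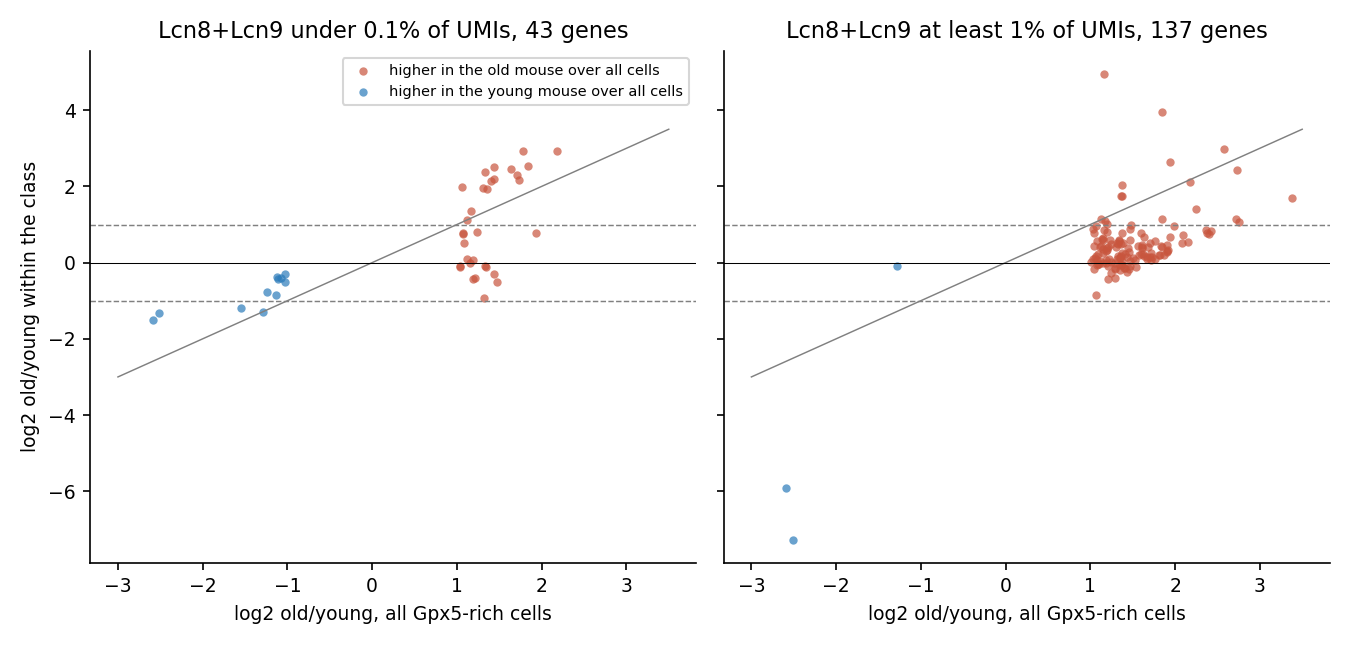
Genes at least 2-fold apart between the mice over all Gpx5-rich cells (x, log2 old over young) against the same ratio within cells under 0.1% (left, 43 genes) and at or above 1% (right, 137 genes) of *Lcn8* plus *Lcn9* (y). The solid diagonal marks equal ratios and dashed lines 2-fold, and 15 and 17 of the genes higher in the old mouse stay above the upper line.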

How the data were processed

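Counts were the UMI counts per gene and cell that the authors deposited for each library. Per the labels and file headers, they used the Chromium 3′ kit, mm10, Seurat and Cell Ranger 3.1.0 for these libraries. The study's methods filter on genes, UMIs and mitochondrial share; doublet removal before deposit is not given in the sources used here.

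No reads were realigned. Levels were computed from UMI sums per mouse and cell group. Ratios were tested with edgeR 4.0.16 (R 4.3.3; TMM, filterByExpr, mouse as block, Benjamini-Hochberg over all genes tested, threshold 0.05), in a fit without the rule genes. On simulated counts for this comparison of 10965 genes, 27 of 100 genes changed 2-fold and 76 of 100 changed 4-fold were recovered, with 4 false calls. Each simulated gene took its spread from the fitted trend, as the test assumes. The false calls therefore do not cover genes whose own spread between mice is larger. Doublet scores followed Scrublet (scanpy 1.11.5) with 0.8% per 1000 cells and were an alternative only. Thinning drew 3000 UMIs per cell without replacement. Ratios between mice had exact Poisson intervals and shares exact binomial intervals (95%). Cells picked on immune markers held a *Ptprc* UMI in only 26.3% (young) and 7.58% (old), so fibroblasts (at least 1% collagen and *Dcn* UMIs) served as the cells that should lack *Gpx5*.

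The cells, the 27 gene lists (467 genes) and the tests were chosen with earlier results of these data known. Named genes were the 20 most abundant, the 12 most raised and 12 most lowered past the threshold with at least 50 CPM in both mice and 1 direction, the 5 with the largest ratio each way between the mice, the 10 most variable, and list members at 100 CPM or past the threshold. Of the list members only examples are printed, and not every gene that met the rule is reported here. Some genes are in more than 1 list, and a gene that passed the filter on low counts only through the group where it is high had to differ. The ranges of *Lcn8* plus *Lcn9* and the fits within them, and the genes followed within ranges, were picked after seeing the data. Gene positions were those of GENCODE and promoters those of RefSeq. The replicate is the mouse. With 1 residual degree of freedom the spread came from the trend over all genes. These p-values and SE thus do not rest on each gene's own spread between the 2 animals.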

Additional observations from a re-analysis of the deposited data

Results flagged for a closer look

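More than 3 *Gpx5* UMIs, the limit that a count of 0 allows, were found in 4 of the 21 mice outside the comparisons, at 6, 11, 4 and 12 UMIs. Over cells that passed the limits on genes and mitochondrial share, *Gpx5* was 0.407 CPM (counts per 1000000 UMIs) in mouse 10 of the aging pool of C57BL/6J mice, 0.237 in the control diet mouse, 0.104 in the high fat diet mouse and 0.336 in the low protein diet mouse of the single-mouse libraries. Each is far under the 30480 and 44170 CPM of the young and the old mouse.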

How the results depend on the processing

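In refits with a test, the genes named as most raised or most lowered kept direction and side of the threshold in 327 of 331, with none reversed. They were picked as the extremes of this comparison, and some passed the filter on low counts through the members alone, so this count is no sign of stability. Within a single mouse, 38 of their ratios could be had, with no test, and all 38 had the same direction. *Ppy*, *Atp4a* and *Napsa* did not pass with DESeq2 (adjusted p 0.410, 0.492 and 0.498), nor *Spink11* with *Gpx5* at 10% or more (log2 ratio 0.94, adjusted p 0.289). The mouse was the block, and without the block 835 genes were higher and 432 lower. Against 943 higher and 567 lower genes, counts were 289 and 172 with *Gpx5* at 10% or more, 594 and 328 in cells thinned to 3000 UMIs, 1812 and 1552 in members under 1% *Lcn8* plus *Lcn9*, 226 and 138 in members at 1% or above, and 244 and 143 with DESeq2, whose 387 calls were all among the 1510. Against 161 and 14 genes 2-fold higher in the old and the young mouse, counts were 62 and 24 with *Gpx5* at 10% or more, 97 and 4 after thinning, 32 under 0.1% *Lcn8* plus *Lcn9*, 96 and 6 at 1% or above, 330 and 55 from 30 UMIs and 469 and 167 at 1.5-fold. Members numbered 1172 and 2299 at 2.5% *Gpx5*, 197 and 350 at 10% (median share 10.9%), 1003 and 1955 from 5000 UMIs, 2186 in the old mouse from 1000 UMIs, 1996 in the old mouse at 5% mitochondrial UMIs, and 1023 and 1880 without the highest doublet scores. The cause of these shifts was not tested. Leaving out a mouse left 1 sum per cell group and no test. The small number of Lcn8/Lcn9-rich cells in the young mouse limits the precision of every ratio against them.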

Other observations

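*Apoe* was lower in each successive range of *Lcn8* plus *Lcn9* in both mice. It was found in 24.0% of thinned members of the young and 23.0% of the old mouse, with a variance 20.3 and 20.7 times its mean, and its level was 571 and 588 CPM under 0.1%, 428 and 465 in the middle range and 209 and 340 at 1% or above. Fibroblasts held *Apoe* at 4323 and 3457 CPM, and the part of fibroblast or other free RNA in the members' *Apoe* was not tested.

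*Actg2* stood apart from the other smooth muscle genes. It reached 2534 and 2682 CPM in members at or above 1% *Lcn8* plus *Lcn9* and 3475 and 3885 in Lcn8/Lcn9-rich cells, where *Acta2* was at 130 and 89.6 and *Myh11* at 20.8 and 16.2. Fibroblasts of the same libraries held *Actg2* at 56.9 and 93.4 and *Acta2* at 1676 and 1488.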
